A study of Mus musculus with 6 samples.

Results

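The SR and hnRNP splicing factor genes were examined in kidneys of female Pkd1 miR transgenic mice. The 25 members are the genes whose transcript cluster carries a single platform symbol that begins with Srsf or Hnrnp, taking the cluster with the highest mean per symbol, without Hnrnpk and without pseudogene symbols containing -ps. They comprise 10 SR and 15 hnRNP genes, out of 65956 transcript clusters on the array. Every member had 1 such cluster, and none shared its values with another cluster. Of the 25 members 24 passed the filter on dim clusters and were tested among 22086 genes, and Srsf12 did not pass it.

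Kidneys came from 3 mice given metformin, 150 mg per kg per day by intraperitoneal injection, and from 3 mice given saline. Injections began at postnatal day 35, and all kidneys were taken at day 63. Both groups carry the Pkd1 miR transgene, so neither stands for a kidney without it, and the transgene's promoter is not named in the labels. Metformin, a biguanide used against diabetes, acts on complex I of mitochondria, and the energy sensor kinase AMPK is activated in cells that receive it. The labels call the mice of a group biological replicates.

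SR proteins carry RNA recognition motifs and a tail rich in arginine and serine, and bound to exonic enhancers they recruit the spliceosome to nearby splice sites. Heterogeneous nuclear ribonucleoproteins (hnRNPs) coat nascent transcripts, often oppose SR proteins at regulated exons, and also act in RNA export, stability and translation. Both families control their own messages through conserved exons or introns whose inclusion gives transcripts that are degraded or held in the nucleus. Values are log2 expression per transcript cluster, which sums probes over a gene and does not separate its spliced forms.

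The arrays' upper quartiles ran from 7.21 to 7.34 in metformin kidneys and from 7.01 to 7.12 in saline kidneys. A change is metformin minus saline in log2 units with the standard error (SE) of the limma fit, and it was called at a Benjamini-Hochberg adjusted p under 0.05 over all genes tested. In that fit 1483 of the 22086 genes rose (6.71%) and 2006 fell (9.08%), together 15.8%, so 42.5% of calls were higher. That share was 25.2% with array medians made equal and 20.7% after quantile normalization, which put the median change of all genes at -0.07 and -0.10 in place of 0.02. Pkd1 had 7.57, 7.58 and 7.34 in metformin kidneys, against 6.70, 7.16 and 6.67 in saline kidneys, a rise of 0.65 (adjusted p = 0.0317). Since all 6 mice carry the transgene, Pkd1 does not check the labels.

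Metformin kidneys held more transcript of 6 members and less of none that passed the test. Srsf5, an SR protein that binds exonic enhancers, rose 1.66-fold. Hnrnpu, which binds RNA and chromatin and is also called scaffold attachment factor A, rose 1.62-fold, and Srsf11, a more distant SR protein, 1.59-fold. Hnrnph1, a reader of G-runs, rose 1.44-fold. Hnrnpl, which binds CA repeats, and Hnrnpd, an AU-rich element binding protein that controls messenger decay, each rose 1.43-fold. The other 18 tested members did not pass. The 6 are 25% of the 24 tested, where 6.71% of all genes rose, and 0 members fell, where 9.08% of all genes did and 15.8% changed either way. No member below 0 had an unadjusted p under 0.05, and 9 above 0 did. The median change over the 24 members was 0.15, a 1.11-fold difference, beside 0.02 over all genes, and 19 members lay above 0. With array medians made equal the members' median was 0.06, beside -0.07 over all genes. After quantile normalization it was 0.13, beside -0.10 over all genes. In 10 of the 24 members all metformin kidneys lay above all saline kidneys, and in 0 below, while 17.8% of all genes were higher without overlap and 19.4% lower.

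**Figure D1:**
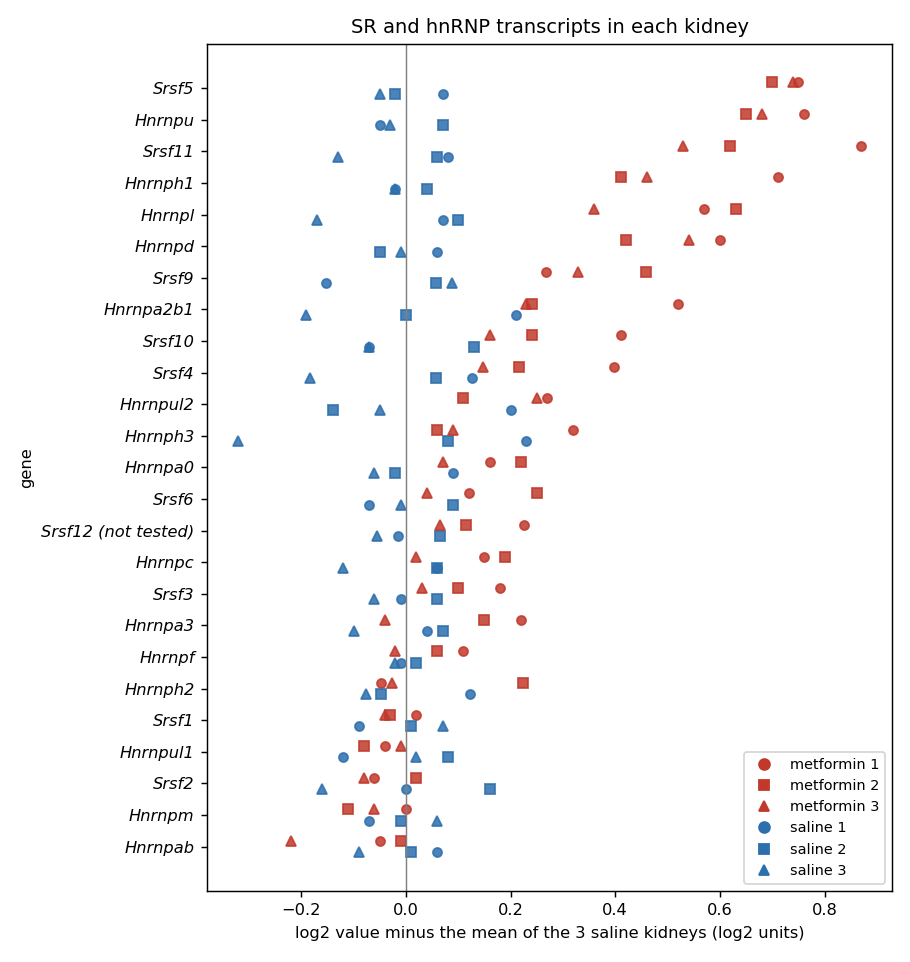
Each row is a member, and each point a kidney, placed at its log2 value minus the mean of the 3 saline kidneys (x axis, log2 units), with metformin in red above saline in blue and the marker shape giving the replicate number. The 3 metformin kidneys lie right of the 3 saline kidneys by at least 0.26 in the top 6 rows, by 0.18 or less in the next 4 (Srsf9, Hnrnpa2b1, Srsf10 and Srsf4), and the groups overlap in the other 14 tested members.

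The stretch of 150 bases before the start of transcription is shown for the 6 members that rose, since they moved in the same direction, and it lets their promoters be compared. The sequences are RefSeq's (GRCm38.p6), written 5′ to 3′ on the strand of the gene, from the first start that the table lists. In all 9 motifs were searched. Capitals mark matches to any of them on either strand, and those met here are GGGCGG (the GC box bound by Sp and KLF factors), CCGGAAG (the core of ETS sites), the CCAAT box and the E box (CACGTG). Each name is followed by its position.
Srsf5 (chr12:80945349-80945498, plus strand): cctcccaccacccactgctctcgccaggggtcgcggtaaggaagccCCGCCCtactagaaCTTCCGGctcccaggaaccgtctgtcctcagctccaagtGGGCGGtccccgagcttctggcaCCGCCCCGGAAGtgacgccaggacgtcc
Hnrnpu (chr1:178337816-178337965, minus strand): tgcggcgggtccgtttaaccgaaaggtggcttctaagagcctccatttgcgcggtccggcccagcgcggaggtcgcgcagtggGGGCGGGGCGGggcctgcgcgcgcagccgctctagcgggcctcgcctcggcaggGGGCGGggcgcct
Srsf11 (chr3:158036607-158036756, minus strand): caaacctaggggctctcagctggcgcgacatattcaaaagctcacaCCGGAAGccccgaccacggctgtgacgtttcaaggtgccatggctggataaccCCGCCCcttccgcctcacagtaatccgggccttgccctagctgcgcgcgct
Hnrnph1 (chr11:50376840-50376989, plus strand): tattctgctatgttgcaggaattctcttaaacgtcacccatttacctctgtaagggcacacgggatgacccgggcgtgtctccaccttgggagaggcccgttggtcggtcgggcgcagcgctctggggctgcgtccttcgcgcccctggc
Hnrnpl (chr7:28810740-28810889, plus strand): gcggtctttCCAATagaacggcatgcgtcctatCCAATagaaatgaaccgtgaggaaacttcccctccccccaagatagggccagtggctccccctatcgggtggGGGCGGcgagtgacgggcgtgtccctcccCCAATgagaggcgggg
Hnrnpd (chr5:99978939-99979088, minus strand): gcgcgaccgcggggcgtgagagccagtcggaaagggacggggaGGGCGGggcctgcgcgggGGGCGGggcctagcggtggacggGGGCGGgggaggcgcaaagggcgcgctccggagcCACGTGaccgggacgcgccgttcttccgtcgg
In Srsf5 the GC box and ETS match nearest to the start overlap by 1 base, and in Hnrnpu the first and second GC boxes overlap. No searched motif falls in the Hnrnph1 stretch, where only these letters were looked for. Of the 5 starts listed for Hnrnph1 and the 2 for Srsf11, only the first was searched.

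The motifs were searched on both strands of the whole RefSeq window, 250 bases before to 50 after the start. A window was found for 23 of the 24 tested members, all but Hnrnpul2. The GC box was present in 6 of the 6 risen members and 12 of the 17 others, and in 35.9% of 27025 promoters. Hnrnpa3 stands among the 17 by its single-symbol cluster, whose identifier carries chromosome 3. Its other cluster, shared with Gm6793, rose by 0.40 (limma adjusted p = 0.0361). The ETS core was present in 3 of the 6 (Srsf5, Srsf11 and Hnrnpd) and 2 of the 17, and in 9.12% of all promoters. CCAAT was present in 2 of the 6 (Hnrnph1 and Hnrnpl) and 11 of the 17, and in 37.9% of all. The E box was present in 1 of the 6 (Hnrnpd) and 3 of the 17, and in 7.24% of all. TATAAA was present in 0 of the 6 and 4 of the 17, and in 14.2% of all. The other 4 motifs were met in none of the 6: those of NRF1, YY1 and CREB (TGACGTCA) in 0 of the 17 too, and in 0.977%, 0.899% and 1.88% of all promoters, and the CGCG element in 1 of the 17 and 0.496% of all. The median G and C content of the windows was 62.5% in the risen members, 65% in the 23 members and 52.7% over all promoters. These are matches of letters, and no binding was measured.

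Among the classical SR proteins, 1 of 7 rose. Srsf5 had 13.66, 13.61 and 13.65 in metformin kidneys, against 12.98, 12.89 and 12.86 in saline kidneys. The groups were separated by 0.63, more than the spread within either. Its change was 0.73 ± 0.09 (SE, n = 3 per group; limma adjusted p = 0.00735). The call held in each of the 6 fits that left out a mouse and in the 9 other settings, with adjusted p from 0.00547 to 0.0294.

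Srsf9, a short SR protein, had 9.31, 9.5 and 9.37 in metformin kidneys, against 8.89, 9.10 and 9.13 in saline kidneys. The groups did not overlap, yet the change of 0.35 ± 0.11 (SE) did not pass (limma adjusted p = 0.0634). It passed when replicate numbers were fitted as a block (adjusted p = 0.0485) and when arrays were weighted (0.0380). Over all its alternatives the adjusted p ran from 0.0380 to 0.187. Srsf4, which has a long arginine-serine tail, had 9.31, 9.13 and 9.06 in metformin kidneys, against 9.04, 8.97 and 8.73 in saline kidneys, groups separated by only 0.02. Its change of 0.25 did not pass (limma adjusted p = 0.192).

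Srsf1, a prototype of the family needed for splicing in human cell extracts, had 12.63, 12.58 and 12.57 in metformin kidneys, against 12.52, 12.62 and 12.68 in saline kidneys. Its groups overlapped, and the 95% interval of its change of -0.01 ran from -0.22 to 0.19. Srsf2 had a change of -0.04 with an interval from -0.29 to 0.21. Srsf3, the smallest of the family and also an export adaptor, had a change of 0.11, from -0.10 to 0.32. Srsf6 had a change of 0.14, from -0.10 to 0.37. These intervals leave out the change of 0.73 seen in Srsf5, but they do not show that the 4 genes were equal between the groups.

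Of the further SR members, Srsf11 rose and Srsf10 did not pass. Srsf11 had 10.99, 10.74 and 10.65 in metformin kidneys, against 10.20, 10.18 and 9.99 in saline kidneys. Every metformin kidney lay at least 0.45 above the highest saline kidney. The change was 0.67 ± 0.12 (SE; limma adjusted p = 0.0151). The call ended without saline replicate 1, where the change was 0.71 and the adjusted p 0.0525. Srsf10, which represses splicing when dephosphorylated, had 11.09, 10.92 and 10.84 in metformin kidneys, against 10.61, 10.81 and 10.61 in saline kidneys. Its groups were 0.03 apart and its change of 0.27 did not pass (limma adjusted p = 0.133). Srsf12 had 3.97, 3.86 and 3.81 in metformin kidneys, against 3.73, 3.81 and 3.69 in saline kidneys. With a mean under the filter at 4.03 it was not tested. Srsf7 is not analysed here.

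In the hnRNP U group, Hnrnpu rose and its relatives Hnrnpul1 and Hnrnpul2 did not pass. Hnrnpu had 13.01, 12.90 and 12.93 in metformin kidneys, against 12.20, 12.32 and 12.22 in saline kidneys. The groups were separated by 0.58. The change was 0.70 ± 0.09 (SE; limma adjusted p = 0.00735), and neither leaving out a mouse nor any of the 9 other settings ended the call, with adjusted p from 0.00569 to 0.0342. Hnrnpul1 had 13.38, 13.34 and 13.41 in metformin kidneys, against 13.30, 13.50 and 13.44 in saline kidneys, and its groups overlapped. The interval of its change of -0.04 ran from -0.26 to 0.18. Hnrnpul2 had 13.35, 13.19 and 13.33 in metformin kidneys, against 13.28, 12.94 and 13.03 in saline kidneys, where saline replicate 1 reached into the metformin range. Its change was 0.21 (limma adjusted p = 0.265).

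In the F/H group, whose members bind G-rich elements near splice and polyadenylation sites, 1 of 4 rose. Hnrnph1 had 14.00, 13.70 and 13.75 in metformin kidneys, against 13.27, 13.33 and 13.27 in saline kidneys, groups 0.37 apart with metformin replicate 1 the highest. The change was 0.52 ± 0.11 (SE; limma adjusted p = 0.0211). Its adjusted p was 0.0788 with saline replicate 1 left out, 0.0536 with saline replicate 3 left out and 0.0557 with metformin replicate 1 left out, each ending the call. Hnrnpf had 12.86, 12.81 and 12.73 in metformin kidneys, against 12.74, 12.77 and 12.73 in saline kidneys. Its change was 0.05, with an interval from -0.15 to 0.25. The groups overlapped also in Hnrnph2 (change 0.05, interval from -0.21 to 0.32) and Hnrnph3 (0.16, from -0.20 to 0.53).

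Hnrnpl, which controls exons next to CA-rich sequence, had 10.44, 10.50 and 10.23 in metformin kidneys, against 9.94, 9.97 and 9.70 in saline kidneys. The third mouse of each group was its lowest, and the groups were 0.26 apart. The change was 0.52 ± 0.12 (SE; limma adjusted p = 0.0297). Leaving out any of 4 mice ended the call, with an adjusted p of 0.0810 for saline replicate 1, 0.0716 for saline replicate 3, 0.0922 for metformin replicate 1 and 0.0929 for metformin replicate 2. So did making array medians equal (change 0.43, adjusted p = 0.0669).

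Hnrnpd had 11.49, 11.31 and 11.43 in metformin kidneys, against 10.95, 10.84 and 10.88 in saline kidneys. All metformin kidneys were at least 0.36 above the saline ones. The change was 0.52 ± 0.09 (SE; limma adjusted p = 0.0154), and the call was lost when saline replicate 1 (adjusted p = 0.0519) or metformin replicate 1 (0.0524) was dropped. Hnrnpab, its closest relative among the members and also an AU-rich element binder, had 13.62, 13.66 and 13.45 in metformin kidneys, against 13.73, 13.68 and 13.58 in saline kidneys. Its change of -0.09 was the lowest of the 24, with an interval from -0.33 to 0.14.

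Of the A/B group, core proteins of hnRNP particles, none of the 3 members passed. Clusters of Hnrnpa1 and Hnrnpa3 that carry several symbols stand outside the members, and these rose by 0.75 and 0.40. Hnrnpa2b1, which also sorts and transports RNA, had 14.32, 14.04 and 14.03 in metformin kidneys, against 14.01, 13.80 and 13.61 in saline kidneys. The gap between the groups was 0.02, and the change of 0.33 did not pass (limma adjusted p = 0.150). Hnrnpa0 had a change of 0.15 and Hnrnpa3 of 0.11, both with overlapping groups. The cluster identifier of Hnrnpa3 carries chromosome 3, while RefSeq places the gene on chromosome 2, so which copy its probes read is not settled. Hnrnpc, which binds uridine tracts and packages pre-mRNA, had a change of 0.12 and an interval from -0.11 to 0.35. Hnrnpm, which binds GU-rich sequence, had a change of -0.06, from -0.26 to 0.15.

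**Figure D2:**
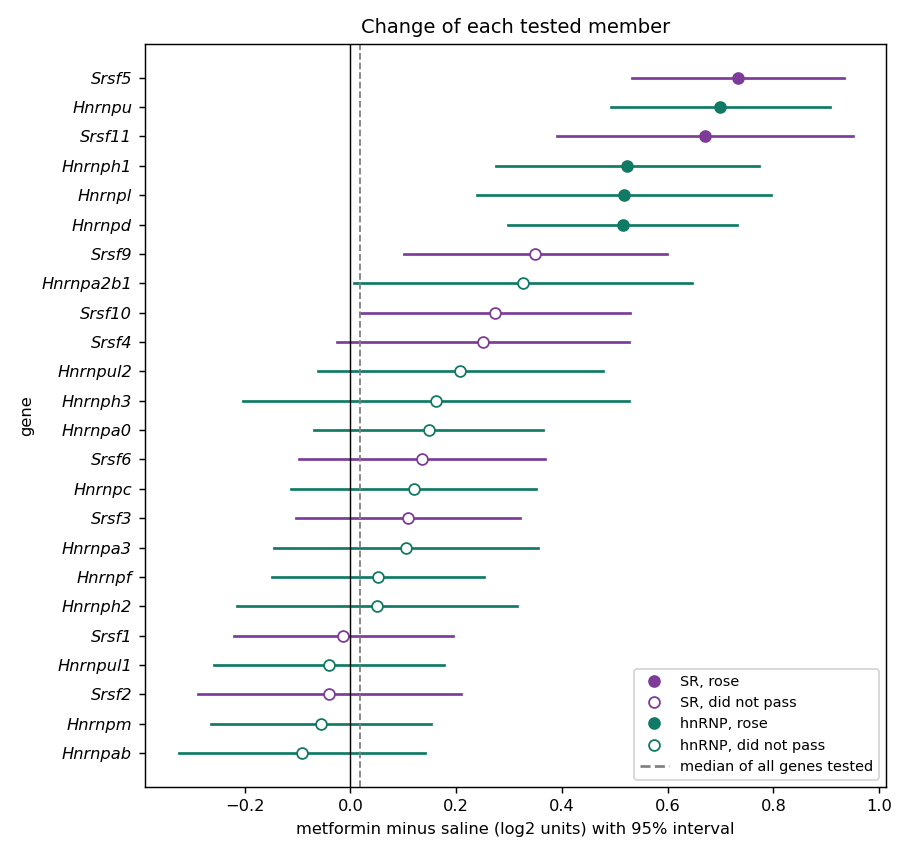
Points give the change of each of the 24 tested members (x axis, metformin minus saline in log2 units) and lines its 95% interval from the limma fit, with SR genes in purple, hnRNP genes in green, filled points for those that rose and a dashed line at the median of all genes, 0.02. The 6 filled points lie between 0.52 and 0.73, and the other 18 between -0.09 and 0.35.

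The members that rose were set beside relatives that did not pass, within the same arrays. Since the 8 pairs were chosen by those changes, a shift above 0 was fixed by the choice, and the values are a description with no test. The log2 difference of Hnrnpu and Hnrnpul1 was -0.37, -0.44 and -0.48 in metformin kidneys, against -1.11, -1.19 and -1.22 in saline kidneys. Levels of different clusters are not comparable, so only the shift between groups has meaning, and it was 0.74 ± 0.05 (SE). For Hnrnph1 over Hnrnpf the differences were 1.14, 0.89 and 1.01 in metformin kidneys, against 0.53, 0.56 and 0.54 in saline kidneys, a shift of 0.47 ± 0.07 (SE). The shift was 0.60 ± 0.11 (SE) for Srsf5 over Srsf6, 0.48 ± 0.09 for Srsf5 over Srsf4, 0.40 ± 0.07 for Srsf11 over Srsf10 and 0.49 ± 0.14 for Hnrnpu over Hnrnpul2. It was 0.47 ± 0.18 (SE) for Hnrnph1 over Hnrnph2. The smallest was that of Hnrnph1 over Hnrnph3, 0.36 ± 0.16 (SE), with differences of 3.15, 3.12 and 3.13 in metformin kidneys, against 2.52, 2.73 and 3.07 in saline kidneys.

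**Figure D3:**
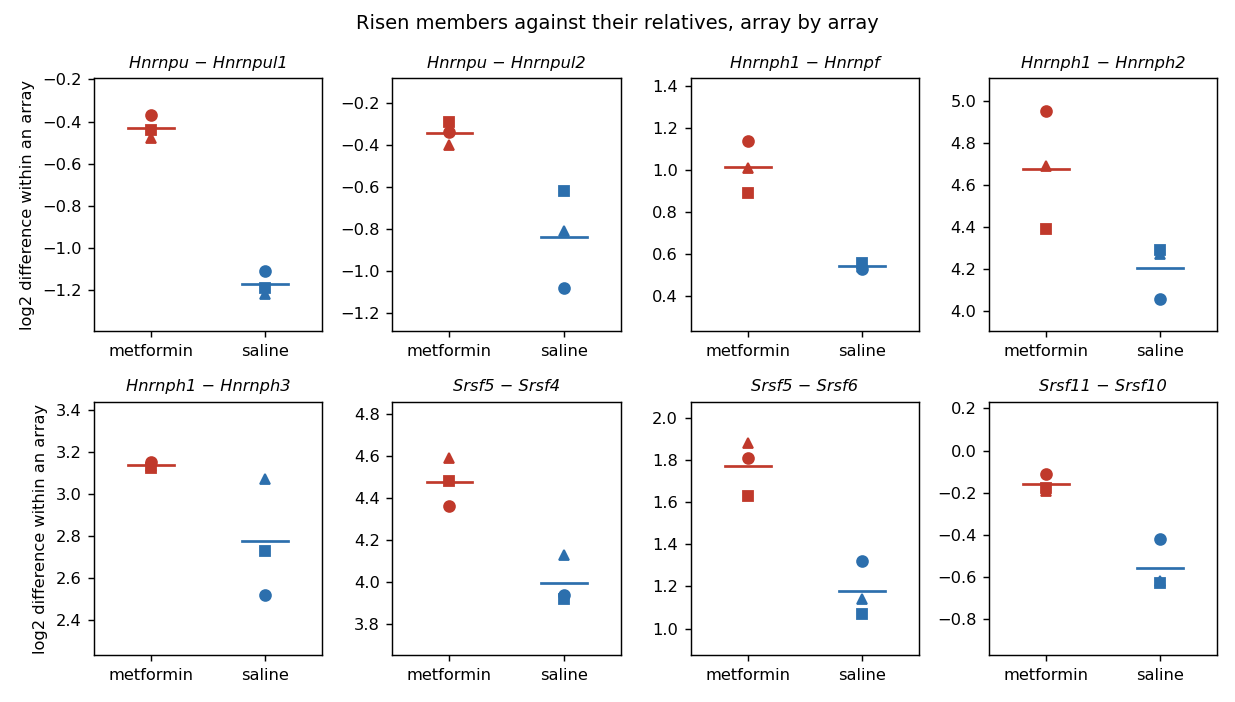
Each panel gives, for a pair of relatives, the log2 value of the first minus that of the second within an array (y axis, spans equal in all panels), with metformin left of saline, shapes for replicate numbers and bars for group means. The 3 metformin points lie above the 3 saline points in each of the 8 panels.

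A further 6 clusters of these families stand outside the members because they carry several symbols or a pseudogene name, and were tested among all 43970 clusters past the filter. The cluster of Hnrnpa1, an abundant splicing repressor, with 3 other symbols had 13.66, 13.56 and 13.39 in metformin kidneys, against 12.72, 13.13 and 12.52 in saline kidneys, a rise of 0.75 (limma adjusted p = 0.0253). Hnrnpdl, a paralog of Hnrnpd listed also under an older name, had 11.39, 11.20 and 11.09 in metformin kidneys, against 10.64, 10.70 and 10.50 in saline kidneys, a rise of 0.61 (limma adjusted p = 0.0175). The other Hnrnpa3 cluster, shared with Gm6793, rose by 0.40 (limma adjusted p = 0.0361). Its identifier carries chromosome 2, where RefSeq places Hnrnpa3. Those of Hnrnpr, Hnrnpll and Hnrnpa1l2-ps had changes of 0.16, 0.07 and 0.28 and did not pass.

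Around the members, SR-related proteins rose in 13 of 27 tested and fell in none, with a median of 0.40. Counts of this and the following lists are to be read beside the 6.71% of all genes that rose and the 9.08% that fell. Son, a scaffold of nuclear speckles, had 12.43, 12.27 and 12.30 in metformin kidneys, against 11.34, 11.60 and 11.35 in saline kidneys, and rose by 0.91 (limma adjusted p = 0.00735). Its groups were 0.67 apart. Scaf4, which binds the tail of RNA polymerase II, rose by 0.86, the speckle protein Srrm2 by 0.68, Srek1 by 0.72, and Luc7l2, a relative of a yeast U1 snRNP protein, by 0.59. Those 5 calls were kept whichever mouse was left out. The others that rose were Luc7l3 (0.72), Sfswap (0.68), Ccnl1 (0.66), Acin1 (0.60), Srrm1 (0.46), Scaf8 (0.43), Luc7l (0.41) and Thrap3 (0.40). The call of Thrap3 was lost whichever mouse was left out. The list had 5 risen genes without saline replicate 1, and 7 when saline replicate 3 or either of metformin replicates 1 and 2 was dropped.

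Kinases that phosphorylate the arginine-serine tail, with the importers of SR proteins, rose in 4 of 12, and the list median was 0.10. Clk1, a CDC-like kinase that sits in speckles, had 12.64, 12.49 and 12.39 in metformin kidneys, against 11.97, 12.07 and 11.79 in saline kidneys, and rose by 0.56 (limma adjusted p = 0.0213). The groups did not overlap. Its relatives Clk2 and Clk4 rose by 0.69 and 0.59, and the spliceosomal kinase Prpf4b by 0.43. Only 1 kinase passed when saline replicate 1 or either of metformin replicates 1 and 2 was dropped, and 2 when saline replicate 3 was.

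Of 23 hnRNP-type proteins under other names 6 rose and 1 fell (median 0.21). Taf15 rose by 0.70 and Ewsr1 by 0.47, both of the FET family. Tardbp, which represses cryptic exons, rose by 0.60, the signal-regulated splicing factor Khdrbs1 by 0.64, and the cold-induced Rbm3 by 0.47. Dazap1 had a rise of 0.36 (limma adjusted p = 0.0474) that was lost whichever mouse was left out and in 5 of the 9 other settings, among them array medians made equal (adjusted p = 0.112) and quantile normalization (0.106). Cirbp, a cold-inducible RNA binding protein related to Rbm3, had 8.16, 8.15 and 7.93 in metformin kidneys, against 8.83, 8.68 and 8.44 in saline kidneys, and fell by 0.57 (limma adjusted p = 0.0277). None of the 7 calls held without saline replicate 1. The number that rose was 3 without saline replicate 3 or metformin replicate 2 and 2 without metformin replicate 1, and the fall of Cirbp ended without any 1 of the metformin mice.

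Core spliceosome proteins had 5 risen and 2 fallen genes among 46, beside 6.71% risen and 9.08% fallen over all genes. Their median was 0.06, beside 0.02 over all genes. It was -0.03 with array medians made equal and -0.11 after quantile normalization, beside -0.07 and -0.10 over all genes. Snrnp70, the U1 protein that SR proteins contact at the 5′ splice site, had 12.09, 12.07 and 11.92 in metformin kidneys, against 11.19, 11.29 and 11.07 in saline kidneys. It rose by 0.84 (limma adjusted p = 0.00735), in each leave-one-out fit too. The branch point protein Sf1 rose by 0.60, and Prpf39, Prpf40b and Prpf38b by 0.68, 0.51 and 0.41. Plrg1, of the Prp19 complex, fell by 0.59. Usp39 fell by 0.36 (limma adjusted p = 0.0445), a call that ended with the replicate block (adjusted p = 0.0558), with trend and robust options, with all clusters tested and whichever mouse was left out. The call of Prpf38b too was lost whichever mouse was left out. After quantile normalization 7 fell, and without saline replicate 1 the counts were 1 risen and 0 fallen. The risen count was 2 when saline replicate 3 or either of metformin replicates 1 and 2 was dropped and 3 for saline replicate 2, and 1 had fallen in each of the 5 fits that kept saline replicate 1.

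In the list named cell-type splicing regulators 6 of 24 rose (median 0.16). They were Rbm5 at 0.86, Tia1 at 0.62, Rbm4 at 0.55, Rbm25 at 0.53, Rbfox2 at 0.49 and Rbm39 at 0.44. The name does not mean that these genes are limited to some cell types, which was not measured. The count was 1 without saline replicate 1 or metformin replicate 2, and 2 without saline replicate 3 or metformin replicate 1. After quantile normalization 2 of the list fell. Of 9 genes of the exon junction complex and nonsense-mediated decay, the kinase Smg1, which phosphorylates Upf1, rose by 0.82 and Smg8, its inhibitor, fell by 0.46. The call of Smg1 was lost when saline replicate 1 or either of metformin replicates 1 and 2 was dropped, and Smg8 kept its call without saline replicate 3 alone. Smg6 and Smg9 had changes of 0.36 and 0.30 and did not pass.

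**Figure D4:**
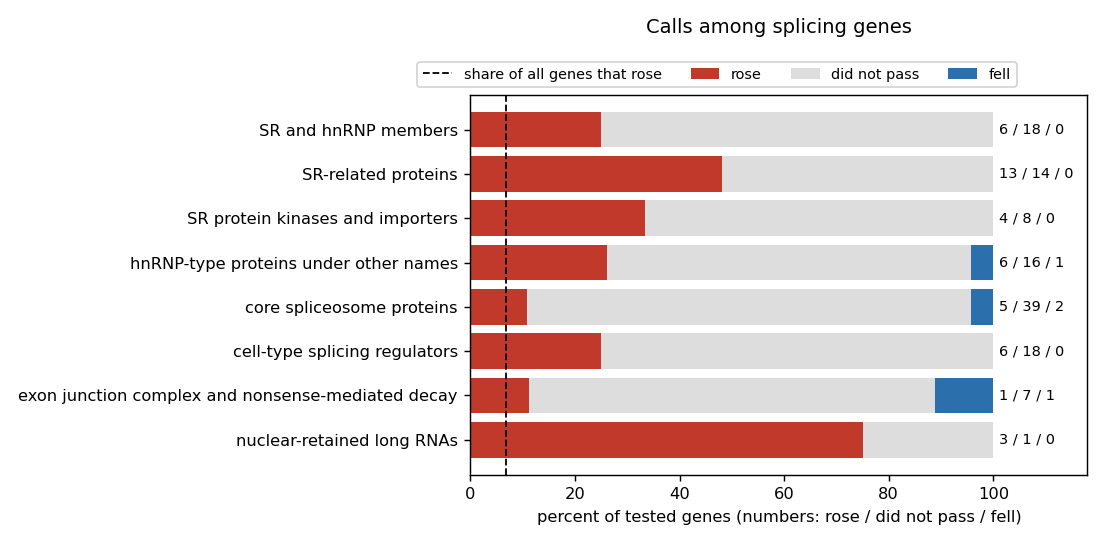
Bars give the percent of tested genes that rose (red), did not pass (grey) or fell (blue) for the SR and hnRNP members and 7 lists, with the counts at the right, and the dashed line marks the 6.71% of all genes that rose. The red part is longest in the nuclear-retained long RNAs (3 of 4) and the SR-related proteins (13 of 27).

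Other measures moved with the groups beside the members. Their counts too stand beside 6.71% risen and 9.08% fallen over all genes. Of 4 nuclear-retained long RNAs tested 3 rose, Neat1 by 1.70, Xist by 1.0 and Kcnq1ot1 by 0.54, and Malat1 had a change of 0.30 (limma adjusted p = 0.0538). The mean log2 value of the 4 ran from 14.66 to 14.82 in metformin kidneys and from 13.72 to 14.05 in saline kidneys. Proliferation markers rose in 7 of 7, with list means from 7.0 to 7.39 in metformin kidneys and from 5.88 to 6.54 in saline kidneys. Proximal tubule markers fell in 4 of 12, with list means from 14.5 to 15.3 in metformin kidneys and from 15.5 to 15.9 in saline kidneys. All 12 of their changes lay below 0, with a median of -0.80. In 11 of the 12 the metformin kidneys were lower without overlap, beside 19.4% of all genes. Collecting duct markers fell in 2 of 7 and erythroid markers in 2 of 2, while none of 6 loop and distal tubule, 4 podocyte or 5 endothelial markers passed. Fibroblast markers rose in 1 of 6, with list means from 9.5 to 9.87 in metformin kidneys and from 8.51 to 9.87 in saline kidneys. Adipocyte markers fell in 1 of 8, with list means from 5.12 to 5.15 in metformin kidneys and from 5.44 to 7.64 in saline kidneys. Macrophage markers rose in 1 of 8, with list means from 9.05 to 9.5 in metformin kidneys and from 8.01 to 9.35 in saline kidneys, and lymphocyte markers in 0 of 7. The part of these in the members' changes was not tested. In whole kidney a change in the mix of cells and a change in RNA per cell cannot be told apart.

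**Figure D5:**
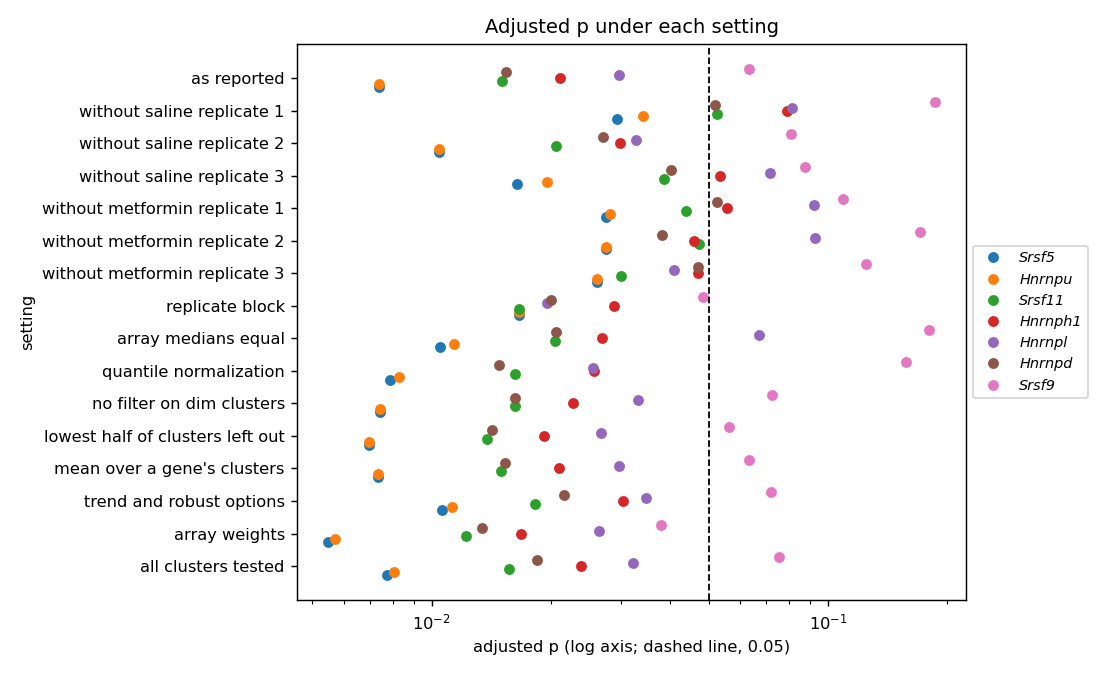
Points give the adjusted p (x axis, log scale) of the 6 risen members and Srsf9 under each setting (rows), with a dashed line at 0.05. Srsf5 and Hnrnpu stay left of the line in every row, Srsf11 in all but 1, and Hnrnpl passes it in 5.

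Of the 6 fits that left out 1 mouse, 4 called fewer members. Srsf5 and Hnrnpu alone were left (2) when saline replicate 1 was dropped. The count was 3 when metformin replicate 1 was dropped, 4 for saline replicate 3, 5 for metformin replicate 2, and 6 for saline replicate 2 or metformin replicate 3. The count over all genes moved likewise, to 842 when saline replicate 1 was dropped, 1240 for metformin replicate 1, 1366 for metformin replicate 2, 1953 for saline replicate 3 and 1958 for metformin replicate 3, beside 3489 with all 6. Dropping saline replicate 2 gave 3955. Directions of the 6 were the same in each fit.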

How the data were processed

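TRIzol extracts of snap-frozen kidneys went through the GeneChip WT PLUS protocol with a biotin label and onto 6 arrays, 3 per group, per the labels' protocols. The authors deposited log2 values for each transcript cluster. RMA and Transcriptome Analysis Console (4.0) are the tools that the submitters' processing notes name, without settings or genome build. They run from 1.94 to 19.9, and the number of arrays limits the precision.

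Of 65956 clusters, 30604 have 1 platform symbol, 2146 several and 33206 are not listed. Symbols were updated by Entrez number through RefSeq GRCm38.p6 (22818 matched, 827 changed). Clusters with a mean at or under 4.03, the lowest 33.3%, were left out, and the cluster with the highest mean was kept per gene. The test over 22086 genes was that of limma (3.58.1, under R 4.3.3, with lmFit and eBayes, two-sided, no covariate). It was run on simulated data too, with no recovery required there for changes as small as those of the risen members. Intervals are at the 95% level. The members and gene lists were chosen with earlier results of these data known. All members are named, and from each list every gene past the threshold, or otherwise up to 4 with the smallest p; Pkd1 was named too. The 9 promoter motifs and 8 pairs of relatives were chosen after changes were seen.

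Deviations from the group means correlated at 0.122, 0.136 and 0.425 for the arrays with replicate numbers 1, 2 and 3. These exceed the value of 0.1 taken here as a sign of pairing, although metformin 1 with saline 2 reached 0.201, and the labels do not say what the numbers mark. The replicate block was an alternative, as were leaving out each mouse, scaling, filters, clusters per gene, limma options and array weights.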

Additional observations from a re-analysis of the deposited data

How the results depend on the processing

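With 3 arrays per group, counts varied with the mouse left out, and each such fit also had fewer arrays. In leave-one-out fits the number of genes changed ran from 842 to 3955, that of members that rose from 2 to 6, the median member change from 0.12 to 0.22, and the 7 lists' risen genes from 10 to 37 (38 with all mice) and fallen genes from 0 to 3 (4 with all mice). Of the 42 list calls 9 held in each such fit, and 32 ended without saline replicate 1. With array medians made equal the median member change was 0.065, beside -0.07 over all genes. After quantile normalization 11 list genes fell. The cause was not tested. No called member or list gene reversed under any setting tried. The replicate block gave 7 risen members, adding Srsf9, ended, of the list calls, that of Usp39 and left the 6 member calls in place. Array weights also added Srsf9. No member fell under any of the 15 alternatives. The intervals of the 18 members that did not pass reached from -0.325 to 0.646.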
